A study of Mus musculus with 6 samples.

Results

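The cytochrome P450 genes of mouse jejunal epithelium were compared between animals with an induced Musashi transgene and control animals. A gene was taken as a member when its symbol began with Cyp followed by the family number, a letter and a digit, and Cyp51 was left out. Of 19938 genes measured by a row with 1 gene symbol, 85 were members, each with a single row. Another 9 rows carrying a P450 name were not members, because they named several genes or did not meet this rule, and they were not used.

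RNA came from preparations of total epithelial cells of the jejunum, which lies between duodenum and ileum, and was hybridised to Affymetrix Gene 1.0ST arrays. The 3 transgenic animals carried a Musashi transgene under a tetracycline response element together with R26-M2rtTA, a doxycycline-dependent activator expressed from the Rosa26 locus. The 3 control animals carried R26-M2rtTA alone. Both groups drank doxycycline for 24 h, and no array came from an animal without it. The series text names the transgene TRE-Msi1, and the genotype label writes TRE-MSI2. Msi1 itself read 12.51, 12.68 and 12.62 in the transgenic arrays, against 6.95, 7.03 and 6.86 in the control arrays (log2 signal, replicates 1 to 3 in order, as everywhere below), a difference of 5.66 (SE 0.0894, limma adjusted p = 1.34e-05). Msi2 read 8.57, 8.08 and 8.01 in the transgenic arrays, against 8.59, 8.71 and 8.62 in the controls (difference -0.42, limma adjusted p = 0.168). Musashi proteins bind RNA and are known from stem and progenitor cells. Age was not given, and Rosa26 is active in most cell types, so induction need not have been limited to 1 epithelial cell type.

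Cytochrome P450 enzymes are haem proteins that insert 1 oxygen atom into their substrates, drawing electrons from NADPH through partner proteins. The first families mostly act on drugs, dietary chemicals and fatty acids, and later families build or clear steroids, bile acids, vitamin D and retinoic acid. In the small intestine they are known mainly from the absorptive enterocytes of the villus, where they meet swallowed compounds before the liver does.

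Arrays that stood apart are given before the results. Transgenic replicate 1 correlated at 0.922 to 0.951 with the other arrays across all genes, against 0.995 to 0.996 among the controls and 0.996 between transgenic replicates 2 and 3. Over the P450 members alone its correlations were 0.798 to 0.868, against 0.873 or more between any other arrays. Control replicate 1 differed from the other 5 arrays in sex-linked genes, with Xist at 5.32 against 11.25 to 11.54 on those arrays and the Y-linked Eif2s3y at 9.17 against 3.24 to 3.42. The sex of the animals was not given in the sources used here. The general epithelial markers had medians of 11.80, 11.85 and 11.87 in the transgenic arrays, against 11.68, 11.65 and 11.65 in the controls. The enterocyte markers had medians of 10.79, 12.40 and 12.33 in the transgenic arrays, against 12.42, 12.46 and 12.43 in the controls. Transgenic replicate 1 was low in enterocyte markers, with a summed linear signal of 22300 over 13 genes against 69300 to 79300 on the other arrays. The T cell markers were also low there, with a median of 5.57 against 8.41 to 9.18, and the Paneth cell markers were high, with 12.09 against 9.15 to 10.78. The median differences of fibroblast, endothelial and red blood cell markers were -0.06, -0.07 and -0.08, and 0 genes of these lists passed the test with all arrays. Markers of other epithelial cells did pass with all arrays, where 5.84% of all genes fell and 6.04% rose. Of 7 crypt stem and proliferating cell markers 2 fell, Olfm4 by 3.37 (limma adjusted p = 9.31e-04) and Ascl2 by 1.03 (limma adjusted p = 0.0142). Of 7 enteroendocrine markers 2 fell, Gcg by 1.54 (limma adjusted p = 0.00192) and Chgb by 0.70 (limma adjusted p = 0.0257). The goblet cell marker Muc2 fell by 0.33 (limma adjusted p = 0.0363), 1 of 6 in its list, and the epithelial marker Cdh1 rose by 0.34 (limma adjusted p = 0.0415), 1 of 6 in its list. The calls of Ascl2, Chgb, Muc2 and Cdh1 were lost without some single arrays (adjusted p up to 0.0733, 0.106, 0.163 and 0.161). The part of cell composition in the P450 results was not tested, and in such bulk samples fewer cells of a type cannot be told from less RNA per cell.

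The P450 genes that passed with all arrays were lower in the transgenic epithelium, and 74 members did not pass. With limma over all genes and a Benjamini-Hochberg adjusted p under 0.05, 11 of the 85 members fell (12.9%), against 5.84% of all genes, and 0 rose, against 6.04% of all genes. At an unadjusted p under 0.05, 16 members were lower and 4 higher, but the shares of all genes at that threshold were not counted. The members that fell were Cyp2c66, Cyp3a25, Cyp2c55, Cyp2s1, Cyp2u1, Cyp4f40, Cyp2c23, Cyp2c67, Cyp17a1, Cyp4f15 and Cyp4f37. The 3 transgenic arrays all lay below the 3 controls for 24 members (28.2%), against 18.2% of all genes, and all above them for 5 members (5.88%), against 16.0% of all genes. The median difference was -0.11 over the members and -0.04 over all genes (log2, transgenic minus control). Without transgenic replicate 1 these medians were -0.06 and -0.03. Many members were dim: 50 lay among the 40% of genes with the lowest mean signal, and 59 members differed by less than 0.5 in either direction. Of the members that fell, Cyp2c67, Cyp4f15 and Cyp4f37 were among the dim ones.

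Leaving out transgenic replicate 1 changed the picture in both directions. It left transgenic replicates 2 and 3, which correlated at 0.996 across all genes. The SEs and adjusted p-values without replicate 1 therefore leave out the spread between animals that it showed. On the remaining 5 arrays 19 members fell (22.4%), against 14.5% of all genes, and 8 rose (9.41%), against 14.0% of all genes. All 11 falls seen with 6 arrays were among the 19. The 8 others that fell were Cyp2b10, Cyp2c65, Cyp2c68, Cyp2d22, Cyp2d26, Cyp3a57, Cyp4f14 and Cyp4f16. The rises were Cyp4a12a, Cyp4a12b, Cyp4a31, Cyp4a10, Cyp4b1, Cyp2j11, Cyp4f13 and Cyp2c70. Of these, Cyp4a12b, Cyp4a31, Cyp4a10, Cyp2j11 and Cyp2c70 were among the dimmest 40% of genes. With a control array left out, 4 to 6 members fell and 0 rose. Calls among all genes also varied with the array left out, as given at the end. The shares of all genes in these fits are not given, so the counts cannot be read as particular to P450 genes. The calls of Cyp2c66, Cyp2c55, Cyp2s1 and Cyp4f40 held with each array left out in turn.

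**Figure D1:**
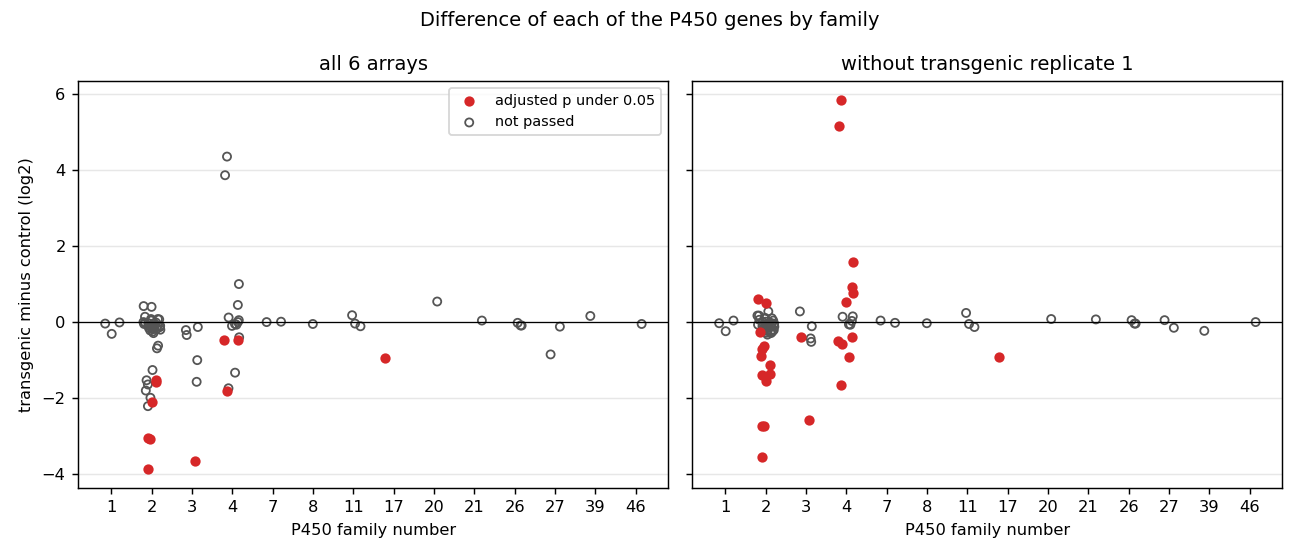
Difference of each P450 gene (transgenic minus control, log2) by family number, with all 6 arrays on the left and without transgenic replicate 1 on the right. Filled points passed a limma adjusted p of 0.05. All 11 passing points lie below 0 on the left, and 8 lie above 0 on the right, 6 of them in family 4.

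**Figure D2:**
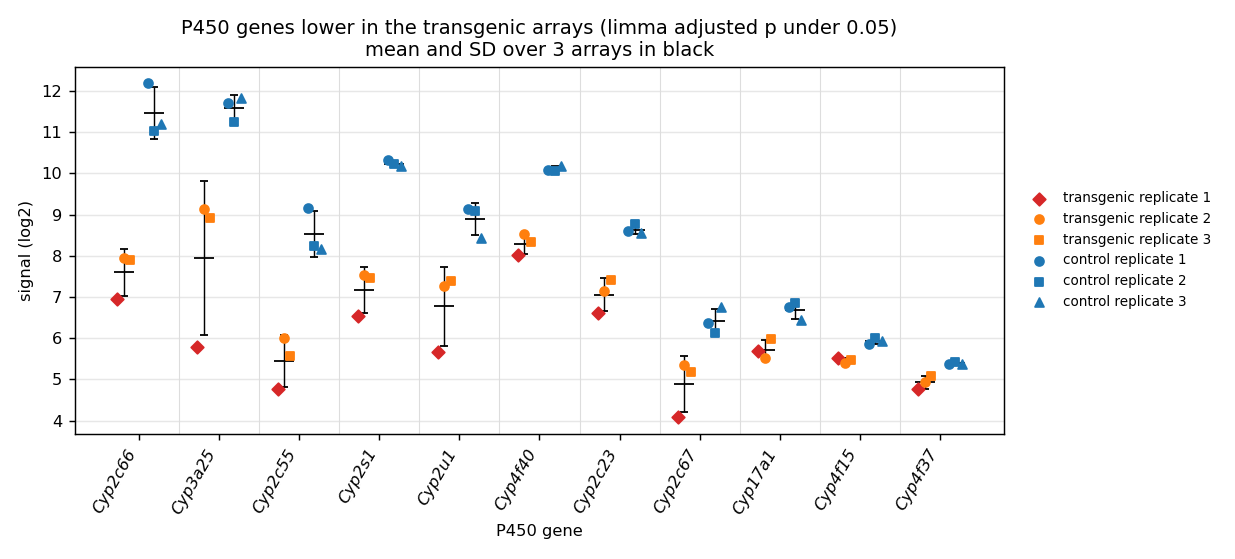
Log2 signal on each array for the 11 P450 genes that fell, transgenic arrays left of the controls in each column, with the mean and SD over 3 arrays in black. The groups do not overlap for any of the 11, and transgenic replicate 1 is the lowest array for most of them.

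In family 1, the aryl hydrocarbon receptor targets, 0 of 3 members passed, and all 3 were dim. Cyp1a1, which oxidises polycyclic aromatic compounds, read 4.86, 4.98 and 5.16 in the transgenic arrays, against 5.75, 5.10 and 5.07 in the controls. The groups overlapped, with a difference of -0.31 (limma adjusted p = 0.43). Cyp1b1 averaged 5.05 ± 0.03 in the transgenic arrays and 5.09 ± 0.13 in the controls (SD, n = 3 each).

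Family 2 is the largest, with 44 members, of which 6 fell and 0 rose, where 5.84% of all genes fell and 6.04% rose. Of these, 12 belong to the Cyp2c cluster of chromosome 19, where no other protein-coding genes than further Cyp2c genes lie between them in the RefSeq gene table. Cyp2c enzymes oxidise arachidonic acid and many drugs. In the cluster 3 genes fell and 0 rose, and the falls were not spread evenly along it. The median difference in the cluster was -0.97 with all arrays and -0.29 without transgenic replicate 1.

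Cyp2c66 showed the largest fall of all members. It read 6.95, 7.94 and 7.91 in the transgenic arrays, against 12.19, 11.03 and 11.20 in the controls. Every transgenic array was more than 3 log2 units below every control. The difference was -3.87 (SE 0.399, limma adjusted p = 0.00401), or 14.7-fold lower, and -3.55 without transgenic replicate 1 (SE 0.294, limma adjusted p = 7.48e-05). Without control replicate 1, the highest control, it was -3.52 (limma adjusted p = 0.0191).

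Cyp2c55, a neighbour in the cluster, read 4.77, 6.01 and 5.58 in the transgenic arrays, against 9.17, 8.24 and 8.17 in the controls. The groups were separated by more than 2 log2 units, and control replicate 1 was again the highest control. The difference was -3.07 (SE 0.398, limma adjusted p = 0.0074), and -2.73 without transgenic replicate 1.

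Cyp2c65, which lies between these genes, differed less. It read 8.64, 10.60 and 10.59 in the transgenic arrays, against 11.69, 11.21 and 11.51 in the controls. The groups did not overlap, transgenic replicate 1 was the lowest array, and the difference of -1.53 did not pass (limma adjusted p = 0.142). Without that array Cyp2c65 fell by 0.88 (SE 0.134, limma adjusted p = 0.00158).

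Further along the cluster, Cyp2c67 read 4.09, 5.36 and 5.18 in the transgenic arrays, against 6.36, 6.13 and 6.75 in the controls, a fall of 1.53 (SE 0.356, limma adjusted p = 0.0438). Cyp2c67 is a dim row, and its call was lost when any array other than transgenic replicate 1 was left out (adjusted p up to 0.156). Cyp2c68 read 4.77, 7.57 and 6.81 in the transgenic arrays, against 8.80, 8.05 and 8.92 in the controls. It passed only without transgenic replicate 1, with -1.40 (limma adjusted p = 0.00653), while all arrays gave -2.21 (limma adjusted p = 0.112). Rows of such close paralogues can share signal, so these genes are not fully independent measurements.

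Other genes of the cluster did not pass with all arrays. Cyp2c29 read 5.12, 8.27 and 7.83 in the transgenic arrays, against 9.99, 7.99 and 6.99 in the controls, and spread as widely within groups as between them (difference -1.26, limma adjusted p = 0.562). Cyp2c38 differed by -0.69 (limma adjusted p = 0.473), and Cyp2c37, Cyp2c39, Cyp2c50 and Cyp2c54 by -0.15 to 0.08. Cyp2c70, known in mice for making muricholic bile acids, read 5.43, 5.60 and 5.86 in the transgenic arrays, against 5.26, 5.30 and 5.12 in the controls. All transgenic arrays were higher, with a difference of 0.40 (limma adjusted p = 0.111), and without transgenic replicate 1 it rose by 0.50 (limma adjusted p = 0.00829).

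**Figure D3:**
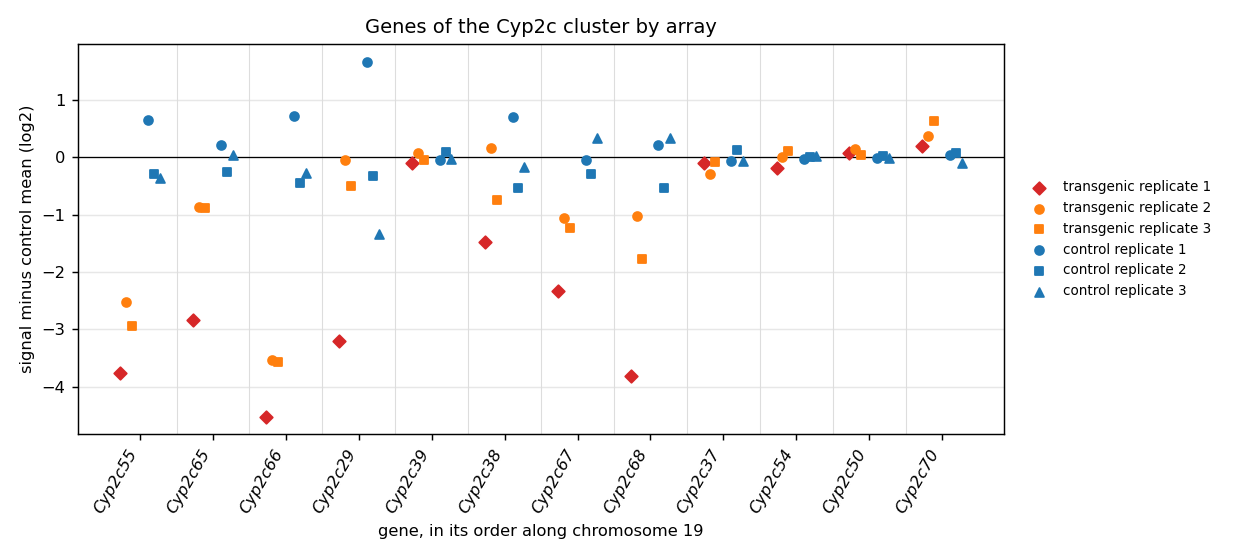
Signal minus the control mean (log2) on each array for the 12 genes of the Cyp2c cluster, in their order along chromosome 19. Cyp2c55 and Cyp2c66 lie lowest on transgenic replicates 2 and 3, with mean differences of -2.73 and -3.55, while Cyp2c39, Cyp2c54 and Cyp2c50 stay near 0 on all arrays.

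The promoter windows of these cluster genes are shown because neighbours in one cluster of related genes differed in their change. Each runs from 250 bases before the start site to 50 bases after it in RefSeq (GRCm38.p6). Capitals mark TATAAA, the core of a TATA box, AGGTCA, the core motif bound by many nuclear receptors, and CAAAGTCC, a form of the site bound by the hepatocyte nuclear factor HNF4. GCGTG, the core of the aryl hydrocarbon receptor site, and CACGTG, the E-box, were searched too. Both strands were searched, no motif is part of another, and CAAAGTCC was added after the sequences had been read.
Cyp2c55, chr19:39006769-39007068, plus strand: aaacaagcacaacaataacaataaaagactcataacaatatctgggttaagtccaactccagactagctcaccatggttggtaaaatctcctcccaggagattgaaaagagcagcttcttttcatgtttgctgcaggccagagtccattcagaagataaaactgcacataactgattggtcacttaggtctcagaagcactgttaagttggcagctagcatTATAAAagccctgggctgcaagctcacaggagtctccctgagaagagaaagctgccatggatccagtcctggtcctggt
Cyp2c66, chr19:39113648-39113947, plus strand: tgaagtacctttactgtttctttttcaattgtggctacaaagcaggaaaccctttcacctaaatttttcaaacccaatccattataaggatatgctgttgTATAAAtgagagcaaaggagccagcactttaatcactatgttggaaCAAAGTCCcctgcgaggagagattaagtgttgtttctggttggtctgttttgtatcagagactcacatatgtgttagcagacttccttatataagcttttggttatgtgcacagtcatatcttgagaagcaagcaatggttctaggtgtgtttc
Cyp2c67, chr19:39648993-39649292, minus strand: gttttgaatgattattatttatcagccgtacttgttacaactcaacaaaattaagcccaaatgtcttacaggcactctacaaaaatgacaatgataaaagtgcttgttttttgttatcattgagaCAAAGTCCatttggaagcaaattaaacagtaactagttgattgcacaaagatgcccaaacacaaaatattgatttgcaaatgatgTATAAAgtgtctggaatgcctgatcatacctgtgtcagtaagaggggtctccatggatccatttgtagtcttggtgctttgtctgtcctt
Cyp2c70, chr19:40187237-40187536, minus strand: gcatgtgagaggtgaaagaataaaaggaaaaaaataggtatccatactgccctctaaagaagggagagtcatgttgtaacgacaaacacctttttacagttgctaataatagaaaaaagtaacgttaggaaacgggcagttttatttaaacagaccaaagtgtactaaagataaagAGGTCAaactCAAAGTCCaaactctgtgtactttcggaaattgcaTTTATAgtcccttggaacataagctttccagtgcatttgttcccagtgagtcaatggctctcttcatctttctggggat

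A promoter was listed for 62 of the 85 members, and each was counted by 1 window. The windows of all genes include further start sites of some genes. CAAAGTCC was chosen after these sequences had been read, so its share among members is no test of enrichment. The motif stood in 9 of these 62 (14.5%), against 1.42% of the 32851 promoter windows of the same table. It was found in Cyp2c66 at position -104 relative to the start site, in Cyp2c67 at -125 and in Cyp2c70 at -64, and in Cyp2c55 it was not found in this window. It was also found in Cyp2c65, Cyp2c68, Cyp3a11, Cyp3a16, Cyp4f18 and Cyp8b1, so it was held by members that fell (2 of the 8 with a window) and by members that did not pass. Several of these windows come from duplicated genes and are not independent. TATAAA stood in 38.7% of the member windows, against 13.6% of all windows. AGGTCA stood in 24.2% against 16.3%, GCGTG in 22.6% against 32.4%, and CACGTG in 1.61% against 7.15%. A match describes the letters only.

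Outside the cluster, Cyp2c23, an arachidonic acid epoxygenase best known from the kidney, also fell. It read 6.61, 7.14 and 7.42 in the transgenic arrays, against 8.60, 8.77 and 8.56 in the controls. The groups lay more than 1 log2 unit apart, with a difference of -1.58 (SE 0.21, limma adjusted p = 0.00802), and only leaving out control replicate 2 ended the call (adjusted p = 0.0505).

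Cyp2s1, a P450 of epithelia outside the liver, fell with little spread among the controls. It read 6.53, 7.54 and 7.46 in the transgenic arrays, against 10.32, 10.22 and 10.18 in the controls. All 3 transgenic arrays were more than 2 log2 units below the controls. The difference was -3.06 (SE 0.272, limma adjusted p = 0.00274), or 8.36-fold lower, and -2.74 without transgenic replicate 1 (SE 0.0864, limma adjusted p = 9.69e-07). Its nearest member on chromosome 7 is Cyp2b10, a target of the nuclear receptor CAR. Cyp2b10 read 7.22, 11.30 and 11.25 in the transgenic arrays, against 12.11, 11.73 and 11.90 in the controls. Transgenic replicate 1 lay 4 log2 units below the other transgenic arrays, and the difference of -1.99 did not pass (limma adjusted p = 0.344). Without that array Cyp2b10 fell by 0.64 (limma adjusted p = 0.00377). The 4 other Cyp2b genes differed by -0.25 to 0.00 and did not pass in either setting.

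Cyp2u1, which hydroxylates long-chain fatty acids, read 5.67, 7.28 and 7.38 in the transgenic arrays, against 9.13, 9.10 and 8.44 in the controls. The groups did not overlap, and it fell by 2.11 (SE 0.488, limma adjusted p = 0.0431). That call was lost without any array other than transgenic replicate 1 (adjusted p up to 0.165), and without transgenic replicate 1 the fall was 1.56 (limma adjusted p = 5.59e-04).

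Of the 10 Cyp2d genes, 0 passed with all arrays. Cyp2d26 read 7.21, 11.79 and 11.79 in the transgenic arrays, against 12.14, 12.00 and 12.05 in the controls, and Cyp2d22 read 6.87, 9.62 and 9.75 against 10.61, 10.30 and 10.24 in the controls. Both were far lower on transgenic replicate 1 than on any other array. Without it they fell by 0.27 (limma adjusted p = 0.0432) and by 0.70 (limma adjusted p = 0.00306). The other 8 Cyp2d genes differed by -0.20 to 0.14.

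The Cyp2j genes, which epoxidise arachidonic acid, had 0 of 6 members passing with all arrays. Cyp2j6, the member best known from mouse intestine, averaged 10.17 ± 0.73 in the transgenic arrays and 10.31 ± 0.27 in the controls (SD, n = 3 each). Cyp2j11, another gene of this group, read 4.67, 5.23 and 5.27 in the transgenic arrays, against 4.72, 4.59 and 4.60 in the controls. It rose by 0.61 only without transgenic replicate 1 (limma adjusted p = 9.22e-04). Cyp2e1, known for ethanol oxidation in the liver, differed by -0.18 (limma adjusted p = 0.372), and Cyp2r1, a vitamin D hydroxylase, by -0.29 (limma adjusted p = 0.253).

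Family 3 holds the Cyp3a enzymes, the broadest drug oxidases, and 1 of 6 members fell, where 5.84% of all genes fell. Cyp3a25 read 5.79, 9.13 and 8.92 in the transgenic arrays, against 11.72, 11.26 and 11.83 in the controls. The groups lay more than 2 log2 units apart. The difference was -3.66 (SE 0.886, limma adjusted p = 0.0496), and transgenic replicate 1 lay far below its group. Without that array it fell by 2.58 (SE 0.165, limma adjusted p = 2.37e-05), or 5.97-fold, and leaving out any other array ended the call (adjusted p up to 0.17).

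Its relatives differed less. Cyp3a11 read 7.55, 11.10 and 10.86 in the transgenic arrays, against 11.61, 11.10 and 11.52 in the controls, and did not pass with all arrays (-1.57, limma adjusted p = 0.384) or without transgenic replicate 1 (-0.43, limma adjusted p = 0.0798). Cyp3a13 read 10.74, 12.27 and 12.14 in the transgenic arrays, against 11.92, 11.75 and 12.12 in the controls, with the other transgenic arrays above every control. It did not pass in either setting (-0.21, limma adjusted p = 0.822, and 0.28 without transgenic replicate 1, limma adjusted p = 0.131). Cyp3a57, a dim member, fell by 0.39 without transgenic replicate 1 (limma adjusted p = 0.0128).

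Family 4 enzymes hydroxylate the end carbon of fatty acids and eicosanoids, and the family moved in both directions. Of 16 members 3 fell and 0 rose with all arrays, and 5 fell and 6 rose without transgenic replicate 1. Of all genes 5.84% fell and 6.04% rose with all arrays, and 14.5% fell and 14.0% rose without that array. The members that rose lie on chromosome 4 except Cyp4f13, and those that fell lie on chromosome 17.

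The Cyp4a genes, known targets of PPAR-alpha, held the widest positive differences of all members. Cyp4a12a, known as a source of the vasoactive lipid 20-HETE in male mouse kidney, read 5.66, 10.38 and 9.97 in the transgenic arrays, against 4.10, 4.41 and 4.46 in the controls. All transgenic arrays lay above the controls, but replicate 1 by far less than the others. With all arrays the difference was 4.35 and missed the threshold (SE 1.22, limma adjusted p = 0.0766). On the 5 arrays other than transgenic replicate 1 it rose by 5.85 (SE 0.149, limma adjusted p = 3.43e-07). The control signal of Cyp4a12a was close to that of the Y-linked Kdm5d on arrays without other Y-linked signal (3.97 to 4.14), so no fold is given. Cyp4a12b read 5.36, 9.45 and 9.10 in the transgenic arrays, against 3.93, 4.26 and 4.14 in the controls, and followed the same order. Its difference was 3.86 with all arrays (limma adjusted p = 0.0722) and 5.16 without transgenic replicate 1 (limma adjusted p = 4.12e-07).

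These adjacent genes are near-identical copies in the mouse, so their rows may share signal and count as less than independent. Control replicate 1, the array with Y-linked signal, had the lowest value of both. Without that array the differences were 4.24 for Cyp4a12a and 3.77 for Cyp4a12b. Cyp4a31 read 3.53, 5.38 and 5.15 in the transgenic arrays, against 3.74, 3.66 and 3.66 in the controls, and Cyp4a10 read 4.87, 6.37 and 6.16 against 5.39, 5.15 and 5.50 in the controls. In both, transgenic replicate 1 lay below every control and the other transgenic arrays above every control. Without replicate 1 they rose by 1.58 (limma adjusted p = 2e-05) and by 0.92 (limma adjusted p = 7.73e-04). Cyp4a14 averaged 4.50 ± 0.22 in the transgenic arrays and 4.45 ± 0.08 in the controls (SD, n = 3 each) and did not pass.

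Cyp4b1, best known from the lung, shares the chromosome. It read 8.42, 11.98 and 11.91 in the transgenic arrays, against 11.44, 11.17 and 10.91 in the controls. Its difference was -0.40 with all arrays (limma adjusted p = 0.86) and turned to a rise of 0.77 without transgenic replicate 1 (limma adjusted p = 0.00421).

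Cyp4f genes include leukotriene hydroxylases, and 3 of 9 fell, where 5.84% of all genes fell. Cyp4f40 read 8.03, 8.53 and 8.34 in the transgenic arrays, against 10.08, 10.05 and 10.17 in the controls. The groups were more than 1 log2 unit apart with little spread, and the difference was -1.80 (SE 0.14, limma adjusted p = 0.00191), or 3.47-fold lower. Its neighbours Cyp4f15 and Cyp4f37 fell by 0.47 (limma adjusted p = 0.0168) and by 0.46 (limma adjusted p = 0.0388). Both are dim rows, and both calls were lost without any control or transgenic replicate 2 (adjusted p up to 0.0816 and 0.153). Cyp4f16 read 8.16, 9.47 and 9.34 in the transgenic arrays, against 10.16, 10.48 and 10.32 in the controls, and passed only without transgenic replicate 1 (-0.91, limma adjusted p = 4.76e-04).

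Cyp4f14 and Cyp4f13 are adjacent and differed in direction once transgenic replicate 1 was left out. Cyp4f14, which inactivates leukotriene B4, read 8.04, 11.58 and 11.52 in the transgenic arrays, against 12.16, 12.13 and 12.06 in the controls. Cyp4f13 read 9.29, 11.18 and 11.23 in the transgenic arrays, against 10.64, 10.74 and 10.62 in the controls. On 5 arrays Cyp4f14 fell by 0.57 (limma adjusted p = 0.00123) and Cyp4f13 rose by 0.54 (limma adjusted p = 0.0017), while with all arrays neither passed (-1.74 and -0.10).

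**Figure D4:**
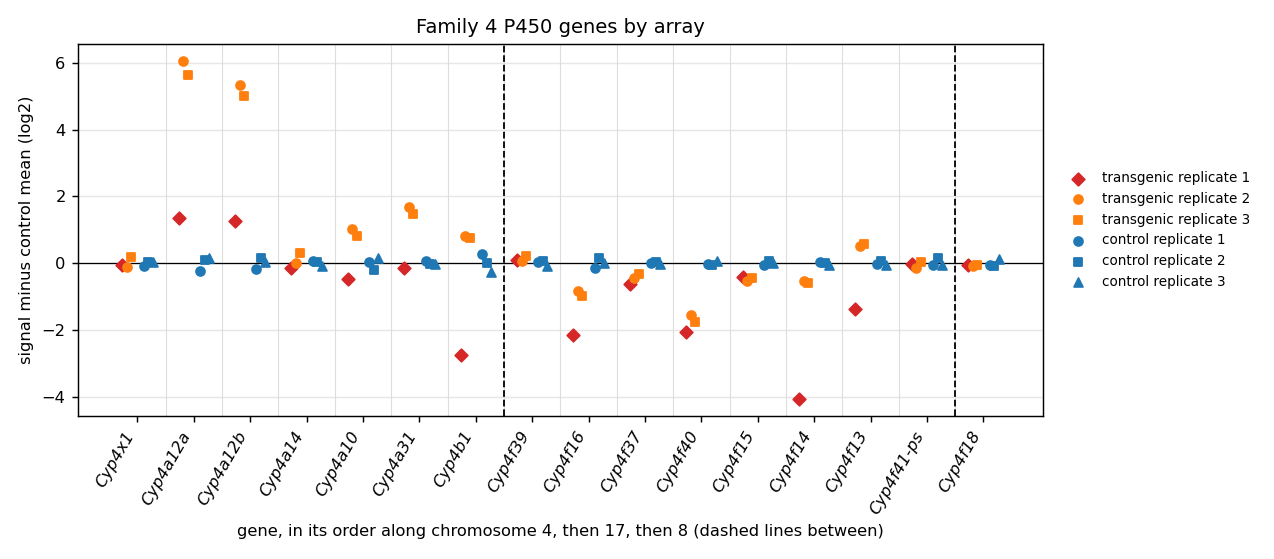
Signal minus the control mean (log2) on each array for the 16 family 4 genes, in chromosomal order and split by chromosome with dashed lines. Cyp4a12a and Cyp4a12b stand highest on transgenic replicates 2 and 3, with mean differences of 5.85 and 5.16, and transgenic replicate 1 lies below the others for Cyp4b1 and Cyp4f14.

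The sterol and steroid families were mostly flat. Of 6 sterol and bile acid members 0 passed in either setting. Cyp27a1, the mitochondrial sterol hydroxylase, read 8.25, 10.92 and 10.96 in the transgenic arrays, against 10.83, 10.73 and 11.12 in the controls. Only transgenic replicate 1 left the control range, and the difference was -0.85 (limma adjusted p = 0.569) with all arrays and 0.05 without that array. Cyp7a1, the rate-limiting enzyme of bile acid synthesis in the liver, Cyp7b1 and Cyp8b1 were dim and differed by -0.05 to 0.01. Cyp39a1, which acts on 24-hydroxycholesterol, was higher on transgenic replicate 1 only, with 8.24, 7.23 and 6.91 in the transgenic arrays against 7.29, 7.20 and 7.41 in the controls. Cyp46a1, the cholesterol hydroxylase of brain, differed by -0.05.

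Among 5 steroid hormone members 1 fell, where 5.84% of all genes fell. Cyp17a1, an enzyme of androgen synthesis, read 5.68, 5.51 and 5.98 in the transgenic arrays, against 6.75, 6.85 and 6.44 in the controls. The groups did not overlap, and transgenic replicate 1 lay within its group. The difference was -0.95 (SE 0.163, limma adjusted p = 0.0172) and nearly the same without that array (-0.93), but the call was lost without transgenic replicate 2 or control replicate 1 or 2 (adjusted p up to 0.0877). Cyp11a1, which starts steroid synthesis, Cyp11b1, which completes corticosterone synthesis, and Cyp21a1 differed by -0.11, 0.18 and 0.04 and did not pass. The retinoic acid hydroxylases Cyp26a1, Cyp26b1 and Cyp26c1 differed by -0.09, -0.09 and -0.02, and the vitamin D hydroxylase Cyp27b1 by -0.12, with 0 calls among them. The orphan Cyp20a1 read 8.58, 7.29 and 7.12 in the transgenic arrays, against 7.10, 7.08 and 7.20 in the controls, so that only transgenic replicate 1 was high.

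Transgenic replicate 1 differed from the other transgenic arrays in many members. It was the lowest of the 6 arrays for 44 members (51.8%), against 30.3% of all genes. It lay at least 2 log2 units below the mean of the other transgenic arrays for 12 members (14.1%), against 1.53% of all genes. These were Cyp2b10, Cyp2c29, Cyp2c68, Cyp2d22, Cyp2d26, Cyp3a11, Cyp3a25, Cyp4a12a, Cyp4a12b, Cyp4b1, Cyp4f14 and Cyp27a1. Enterocyte markers were low on the same array, as given above, for example the lactase gene Lct with 8.16, 12.16 and 12.15 in the transgenic arrays against 12.42, 12.41 and 12.43 in the controls. The part of these markers in the P450 values was not tested. Without that array 4 of the 13 enterocyte markers fell and 1 rose, where 14.5% of all genes fell and 14.0% rose. The widest difference was then that of the sucrase-isomaltase gene Sis, with -1.17, and the other 12 lay between -0.48 and 0.38. Other cell markers also differed on these 5 arrays. All 6 Paneth cell markers fell, with a median of -1.11, as did 6 of 7 crypt stem and proliferating cell markers, with a median of -0.99, and 5 of 7 T cell markers, with a median of -0.62. Their part in the P450 values was not tested either. On the same 5 arrays the largest P450 falls were those of Cyp2c66, Cyp2c55, Cyp2s1 and Cyp3a25, with -3.55, -2.73, -2.74 and -2.58. The others of the 19 members that fell (22.4%) differed less, the least being Cyp2d26 with -0.27, and 8 members rose (9.41%). Most of the 19 falls lay within the range of the enterocyte markers, among them Cyp2c67 (-1.14), Cyp17a1 (-0.93), Cyp4f37 (-0.38) and Cyp2d26. Besides the largest falls just named, Cyp2c23 (-1.36), Cyp2c68 (-1.40), Cyp2u1 (-1.56) and Cyp4f40 (-1.66) lay below that range.

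P450 proteins need haem and electron donors, and most of the genes that make haem were lower in the transgenic arrays. The list of redox partners and haem genes had 20 measured genes, of which 7 fell and 2 rose, with a median of -0.41, where 5.84% of all genes fell and 6.04% rose. Alas1, the rate-limiting enzyme of haem synthesis, read 9.13, 9.47 and 9.51 in the transgenic arrays, against 10.58, 10.47 and 10.43 in the controls. The groups did not overlap, with a difference of -1.12 (SE 0.124, limma adjusted p = 0.00499) that held with each array left out. The next enzyme, Alad, fell by 1.28 (SE 0.203, limma adjusted p = 0.0138).

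Of 7 measured enzymes of haem synthesis 5 fell and 1 rose, against the same shares of all genes (5.84% and 6.04%). Urod, Ppox and Fech, the last being the enzyme that inserts iron, fell by 0.38, 0.72 and 0.71 (limma adjusted p = 0.0396, 0.0252 and 0.0172). Uros rose by 0.46 (limma adjusted p = 0.0186), and Cpox differed by 0.04. The calls of Alad, Urod, Ppox, Fech and Uros were lost without any 1 control (adjusted p up to 0.172). Hmox1, which breaks haem down, read 6.91, 7.17 and 6.97 in the transgenic arrays, against 5.97, 6.15 and 5.93 in the controls, and rose by 1.00 (SE 0.109, limma adjusted p = 0.00468). Blvrb, a biliverdin reductase, fell by 1.03 (limma adjusted p = 0.032, up to 0.135). Fdx1, the ferredoxin that feeds electrons to mitochondrial P450s, fell by 0.57 (limma adjusted p = 0.00879, up to 0.0609). The cytochrome b5 gene Cyb5a and the reductase gene Cyb5r3 differed by -0.53 and -1.21 and passed only without transgenic replicate 1 (-0.40 and -0.66).

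Among 40 measured transcription factors known to act on P450 genes, 8 fell and 3 rose, with a median difference of -0.22, where 5.84% of all genes fell and 6.04% rose. The share of rises was close to that of all genes. The genes that fell were Nr1d1, Nr1d2, Tef, Hlf, Dbp, Rara, Rxra and Rxrb, and those that rose were Nr1h4, Nfil3 and Cebpd. Nr1d1, a haem-binding repressor of the clock, read 7.43, 7.51 and 7.56 in the transgenic arrays, against 11.17, 11.21 and 11.04 in the controls. It fell by 3.64 (SE 0.0857, limma adjusted p = 5.1e-05), and its relative Nr1d2 fell by 1.74 (limma adjusted p = 0.00222). Tef and Hlf, factors of the PAR bZIP family that drive detoxification genes in mouse liver, fell by 1.04 (SE 0.0929, limma adjusted p = 0.00279) and by 0.88 (limma adjusted p = 0.00541), and Dbp of the same family fell by 1.28 (limma adjusted p = 0.00943). The Dbp call was lost when control replicate 1 or 3 was left out, reaching 0.057. Rxrb fell by 0.40 (limma adjusted p = 0.0433), a call lost without any array other than transgenic replicate 1 (adjusted p up to 0.184). Nfil3, a repressor that competes for their sites, read 8.62, 9.25 and 9.27 in the transgenic arrays, against 6.89, 7.19 and 6.79 in the controls. It rose by 2.09 (SE 0.209, limma adjusted p = 0.00364). The retinoic acid receptor Rara fell by 1.30 (limma adjusted p = 0.00158) and the bile acid receptor Nr1h4 rose by 1.42 (limma adjusted p = 0.00196).

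The sensors of drugs and dietary chemicals did not pass with all arrays. Nr1i3, the receptor CAR, read 6.06, 8.59 and 8.66 in the transgenic arrays, against 9.41, 9.17 and 9.30 in the controls, and fell by 0.67 only without transgenic replicate 1 (limma adjusted p = 0.00119). Nr1i2, the receptor PXR, read 8.97, 10.66 and 10.62 in the transgenic arrays, against 10.31, 10.18 and 10.45 in the controls, and rose by 0.33 without transgenic replicate 1 (limma adjusted p = 0.0401). The partner receptor Rxra was 2.82-fold lower with all arrays (SE 0.272, limma adjusted p = 0.0211, up to 0.0937 without a control), and it fell by 1.17 on the log2 scale without transgenic replicate 1. The aryl hydrocarbon receptor Ahr and Ppara differed by 0.35 and -0.02 and did not pass, nor did Hnf4a (-0.15, limma adjusted p = 0.84). Vdr, another receptor of the list, lay below every control on all transgenic arrays. Its difference was -1.62 with all arrays (limma adjusted p = 0.0601) and -1.11 without transgenic replicate 1 (limma adjusted p = 8.24e-05).

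**Figure D5:**
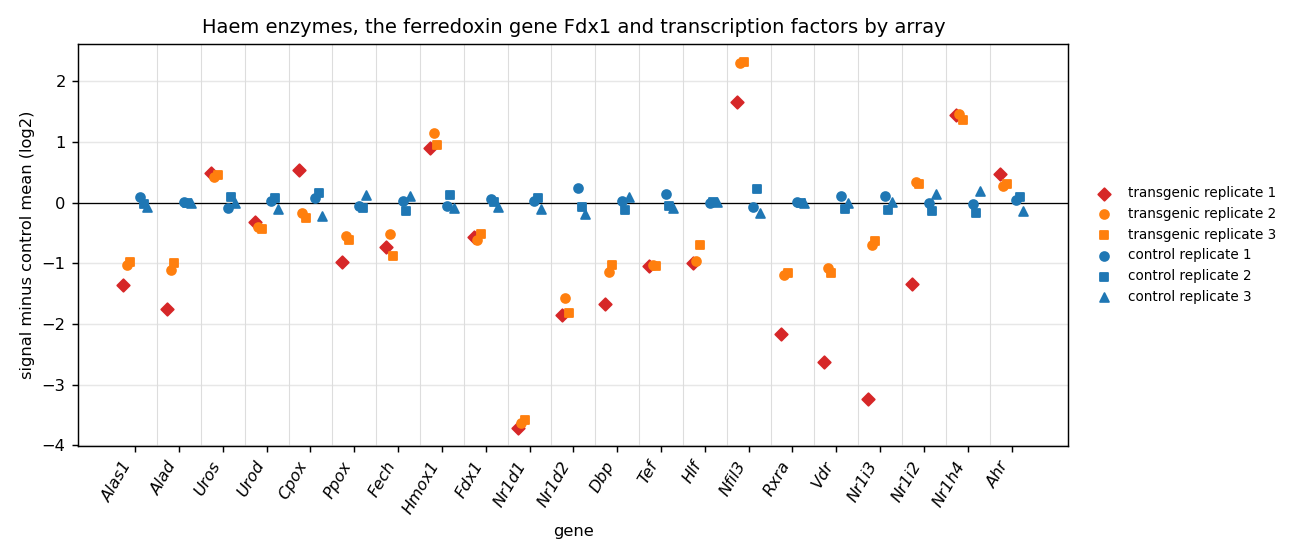
Signal minus the control mean (log2) on each array for haem enzymes, Fdx1 and transcription factors of P450 genes. The 3 transgenic arrays lie together below the controls for Alas1 and Nr1d1 and above them for Hmox1, Nfil3 and Nr1h4. For Vdr and Nr1i3 all 3 transgenic arrays lie below the controls, transgenic replicate 1 far lowest. For Nr1i2 only transgenic replicate 1 lies below them.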

How the data were processed

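Total RNA (250 ng per array) was profiled on 6 arrays, 3 transgenic and 3 control, grouped by the sample titles. The deposited values are log2 signals, and the submitters' processing notes name RMA and Partek 6.5, with no settings given in these sources. Because RMA makes array distributions nearly equal, a change in total RNA cannot show, and it compresses dim signals. Array medians were 6.27 to 6.34 over 35399 rows. Rows were named through the platform annotation, and those with several symbols or none were left out. For each gene the row with the highest mean was kept (19938 genes).

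Each gene was fitted in limma 3.58.1 under R 4.3.3 (lmFit, then plain eBayes), as transgenic minus control. P-values were adjusted by the Benjamini-Hochberg method across all 19938 genes, and rose or fell means an adjusted p under 0.05. The test was tested on simulated data. With 3 arrays a group, 0.1 is the smallest p of an exact two-sided permutation test. The series text calls the samples animals, and n = 3 limits the precision. ± is an SD. Genes were named by a rule: every member that passed, every member past 1 log2 unit without transgenic replicate 1, the member with the largest difference in families without a call, and a list of known P450 genes, and from other lists up to 6 members with the smallest p. Further genes were named after their values were seen. The members and lists were chosen with earlier results of these data known. The alternatives were rescaling the arrays, removing dim genes, blocking on the replicate number, changing the variance prior, weighting arrays, averaging or separately testing a gene's rows, a looser threshold (adjusted p under 0.1) and leaving out each array.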

Additional observations from a re-analysis of the deposited data

How the results depend on the processing

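With all arrays 11 P450 genes fell, 0 rose and, of all genes called in either direction, there were 2368. Quantile normalization again gave 11 falls, equal array medians 10 (Cyp3a25 lost its call) and the mean of a gene's rows 11. Trend and robust settings gave 12. A filter on the dimmest 40% of genes left 35 members and gave 9 falls. It took out Cyp2c67, Cyp4f15 and Cyp4f37 before testing, and the other 8 falls kept their calls. An adjusted p under 0.1 gave 13 falls and 2 rises. Testing all rows gave 7 falls. Array weights gave 18 falls, 7 rises and 5770 calls in all. With the replicate number as a block, 5 P450 genes and 733 of all genes were called. The labels do not say that equal replicate numbers mark shared animals, litters or days, so the numbers were not taken as pairs. Same-numbered arrays correlated at -0.07, -0.168 and -0.122 in their deviations from the group means. Deviations from the mean of 3 arrays are tied to each other, so these values cannot decide on pairing. With each array left out, 4 to 19 P450 genes fell, 0 to 8 rose and 683 to 5700 of all genes were called, the highest counts being those without transgenic replicate 1. The Cyp4b1 difference ranged over these from -1.01 to 0.77 and the Cyp4f13 difference from -0.43 to 0.54, positive only without transgenic replicate 1. The cause of these shifts was not tested. Signal over background was not available to set which dim members were detected.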
